A study of Danio rerio with 6 samples.

Results

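The genes described here encode the subunits of 3 families of pentameric ligand-gated ion channels: the GABA-A receptors, the glycine receptors and the nicotinic acetylcholine receptors. Members were chosen by symbol alone, as records whose name begins with gabr, glra, glrb or chrn, and 50 of the 25432 records of the count table did so. They comprise 21 GABA-A, 7 glycine and 22 nicotinic subunit genes. Of the nicotinic genes, 6 encode the receptor of the neuromuscular junction and are called muscle-type here; the other 44 members are called brain-type, although that heading also takes in the gabrr subunits of the retina, the nicotinic subunits of hair cells and the pi subunit, which in mammals is found mainly outside the nervous system.

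RNA was sequenced after poly(A) selection from whole zebrafish embryos at 72 hours post fertilization. In 3 libraries the embryos had received a wbp11 morpholino (wbp11-MO) and in the other 3 a control one (control-MO), with 50 embryos pooled for each library. Morpholinos are antisense oligomers that keep a target RNA from being translated or spliced, so the embryos are knockdowns and not mutants, and the labels name neither the strain nor the dose. The study is titled as a zebrafish model of VACTERL, a human association of malformations in several organs, and wbp11 encodes a protein of the splicing machinery.

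All of these receptors are rings of 5 subunits around an ion pore. GABA and glycine receptors pass chloride and carry most fast inhibition in the brain and the spinal cord, whereas nicotinic receptors pass cations and are mostly excitatory. At the neuromuscular junction a nicotinic receptor starts each muscle contraction. In mammals it is built of alpha, beta, delta and either gamma or epsilon subunits. There the gamma subunit of embryonic muscle is replaced by epsilon as the junction matures. In the brain, neuronal nicotinic receptors are built from other alpha and beta subunits.

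Library totals ran from 11219706 to 13669995 counted reads. The targeted gene has 2 records in the table, and the level of neither was reduced in libraries labelled wbp11-MO. Levels are given as reads per 1000000 reads of the scaled library size (CPM). The wbp11 record on chromosome 3 had 23.0, 25.7 and 25.4 CPM in the wbp11-MO libraries, against 14.7, 12.4 and 17.6 CPM in the control-MO libraries. The wbp11 record on scaffold KN150013.1 had 10.4, 9.21 and 10.5 CPM in wbp11-MO, against 8.97, 6.99 and 8.38 CPM in control-MO. The chromosome 3 record was higher by 0.72 ± 0.12 on the log2 scale (SE, with an adjusted p of 4.7e-06 in edgeR), and the other was not called (edgeR adjusted p = 0.1). Which of the 2 steps the morpholino blocks is not stated in the labels, so these levels do not check the labels, and every direction below refers to the libraries labelled wbp11-MO.

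Most brain-type receptor genes were lower in wbp11-MO embryos, while muscle-type genes were mostly higher. Of the 48 members that passed the filter on low counts, 35 were lower and 6 higher at an adjusted p under 0.05, by edgeR's quasi-likelihood test. Over all 20012 genes tested, 31.2% were lower and 30.5% higher by the same rule, 61.7% in all. Of the 43 brain-type genes tested, 34 were lower, 2 higher and 7 not called, and 29 of the 34 were at least 2-fold lower, a size of fall seen in 14.3% of all genes tested. The 1 member at least 2-fold higher was chrng, beside 5.9% of all genes tested. The groups did not overlap in 42 of the 48 members tested, beside 65.4% of all genes tested. In 36 of the 42, wbp11-MO lay below control-MO, beside 33.1% of all genes tested. The untested chrna4a, lower in wbp11-MO, did not overlap either. Of the 5 muscle-type genes tested, 4 were higher and 1 was lower. The median log2 fold change was -1.43 over the tested brain-type genes and 0.43 over the tested muscle-type genes, beside 0.00 over all genes tested.

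Members with few reads need care in such counts. There were 6 tested members with fewer than 10 reads in every wbp11-MO library, namely gabra4, gabra6a, gabra6b, gabrr1, gabrr2a and chrna10a, and these could pass the filter only through the control-MO libraries. Others, among them glrba, chrnb2a, chrnb2l, chrnb3b, gabrz and gabra3, had fewer than 10 reads in some wbp11-MO libraries. They too needed control-MO libraries to pass. When all 50 members were tested with no filter beyond 1 count, 36 were lower and 6 higher. That fit adds only 2 members, so it is no check on those named above.

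**Figure D1:**
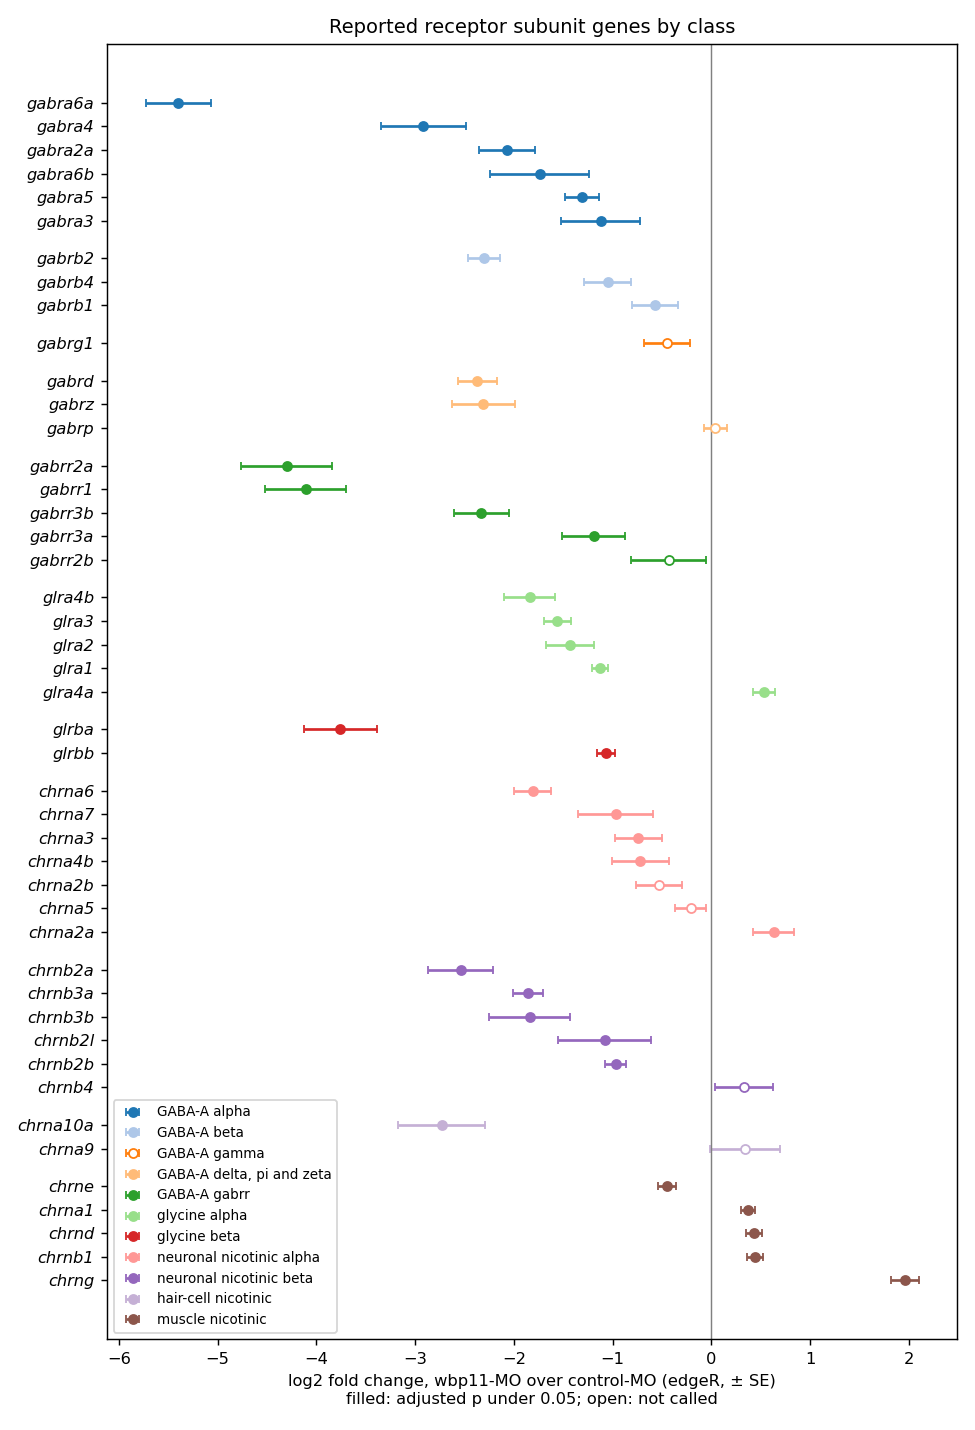
Log2 fold change of the tested receptor genes reported here, wbp11-MO over control-MO (x axis, log2 scale, points with SE bars), in rows grouped by subunit class; filled points passed an adjusted p under 0.05. Values run from -5.40 for gabra6a to 1.96 for chrng, and 4 of the 5 muscle-type genes at the bottom lie right of 0.

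Summed by library, the contrast between the families can be read in the counts themselves. The muscle-type genes together had 2923, 2753 and 2857 reads in the wbp11-MO libraries, against 2491, 1970 and 2385 in the control-MO libraries. The brain-type genes together had 3109, 2784 and 2633 reads in the wbp11-MO libraries, against 6968, 5947 and 6829 in the control-MO libraries. Reads of the muscle-type genes thus about equalled those of the brain-type genes in wbp11-MO, with log2 ratios of muscle-type over brain-type sums of -0.09, -0.02 and 0.12, against -1.48, -1.59 and -1.52 in control-MO. The groups did not overlap, and the mean ratio was 1.54 higher on the log2 scale in wbp11-MO. Whole embryos do not separate fewer cells of a type from less RNA per cell.

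Summed levels of marker genes of the source tissues moved in the same directions, although single muscle markers went both ways. The 10 neuron markers, all detected, summed to between 1336 and 1424 CPM in wbp11-MO and between 2410 and 2452 CPM in control-MO, with 9 lower and 1, elavl3, higher. The 13 skeletal muscle markers, all detected, summed to between 45708 and 50280 CPM in wbp11-MO and between 38751 and 41723 CPM in control-MO, with 7 higher, 3 lower and 3 not called. Much of the difference in this sum came from ckma and ckmb, with means of 6995 and 6766 CPM in wbp11-MO, against 3779 and 4716 CPM in control-MO. The most abundant marker, actc1b, was not called. On the log2 scale, the ratio of mean sums was -0.83 for neuron markers beside -1.18 for brain-type receptor genes, and 0.26 for muscle markers beside 0.36 for muscle-type receptor genes. The median log2 fold change was -0.95 over the neuron markers and 0.15 over the muscle markers. For all genes tested it was 0.00, with 31.2% lower and 30.5% higher. The part of these cell types in the receptor differences was not tested.

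**Figure D2:**
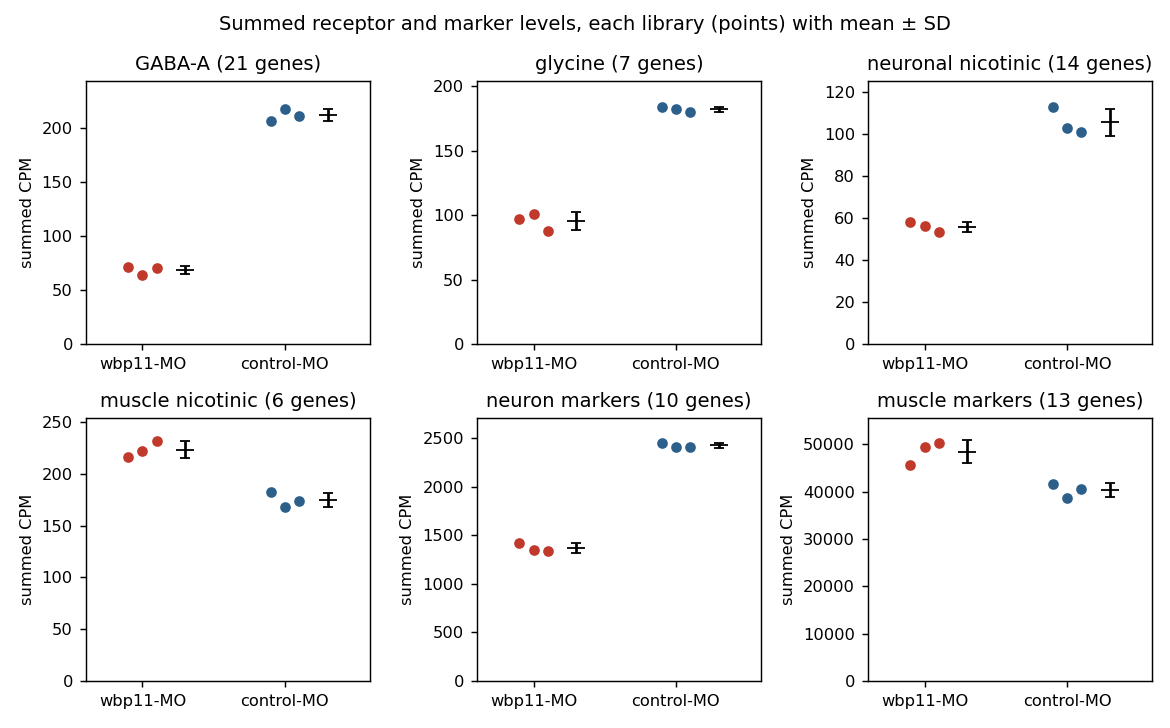
Summed CPM (y axis, from 0) of 4 receptor families and 2 marker lists in each library (points), with group mean and SD beside them. GABA-A, glycine and neuronal nicotinic sums are lower in each wbp11-MO library than in any control-MO library, and the muscle nicotinic sum is higher.

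Among the GABA-A subunit genes, 18 of 21 were lower in wbp11-MO, 0 were higher and 3 were not called, with a median log2 fold change of -1.74. Of all genes tested, 31.2% were lower and 30.5% higher. The 18 include gabra4, gabra6a, gabra6b, gabrr1 and gabrr2a, which had fewer than 10 reads in every wbp11-MO library. All 21 passed the filter, so the median of -1.74 with no filter beyond 1 count covers the same genes and does not check the filter. By limma-voom and by DESeq2 none was higher either, and none of the 21 was higher at an unadjusted p under 0.05 by edgeR. Alpha and beta subunits together bind GABA, and gamma or delta subunits help to set where on the neuron the receptor sits. The summed level of the 21 genes was 71.9, 64.5 and 70.3 CPM in wbp11-MO, against 207, 218 and 211 CPM in control-MO.

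All 7 alpha subunit genes were lower, and they differed widely in how much. The largest fall was that of gabra6a (chromosome 14, 22152060 to 22168786, GRCz11), whose mammalian counterpart is found mainly in granule cells of the cerebellum. It had 2, 5 and 2 reads in the wbp11-MO libraries, against 149, 120 and 135 in the control-MO libraries. Its log2 fold change was -5.40 ± 0.33 (SE, with an adjusted p of 5.2e-15 in edgeR), and the remaining 6 lay between -2.92 for gabra4 and -1.12 for gabra3. The alpha gene gabra5 stood at 5.51 ± 1.07 CPM in wbp11-MO and 13.7 ± 1.02 CPM in control-MO (SD, n = 3 each). The gabra3 call was lost when control-MO replicate 2 or either of wbp11-MO replicates 2 and 3 was left out (adjusted p = 0.063, 0.057 and 0.088 in edgeR, range 0.0055 to 0.088 in the alternatives), and that of gabra6b without control-MO replicate 3 (adjusted p = 0.081 in edgeR, range 0.0011 to 0.081 in the alternatives).

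The beta subunit genes, whose products the receptor needs to reach the cell surface, were all lower as well. In gabrb2 the levels were 6.06, 4.20 and 3.81 CPM in wbp11-MO, against 26.0, 20.5 and 23.3 CPM in control-MO. Its groups lay far apart, with a log2 fold change of -2.30 ± 0.16 (SE, with an adjusted p of 7.3e-14 in edgeR). Falls were smaller for gabrb4, at -1.05 ± 0.24, and for gabrb1, at -0.57 ± 0.23 on the log2 scale (SE, with an adjusted p of 3.6e-04 and 0.033 in edgeR). The gabrb1 call was lost when either of control-MO replicates 1 and 3 or wbp11-MO replicate 1 was left out (adjusted p = 0.093, 0.096 and 0.19 in edgeR, range 0.017 to 0.19 in the alternatives) and with DESeq2 (adjusted p = 0.055).

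Unequal falls left a different mixture of beta transcripts. Per length, in the deposited FPKM values, which scale reads by gene length, shares of gabrb4 in the summed beta level were 48.1%, 39.7% and 28.3% in wbp11-MO, against 22.0%, 21.8% and 19.0% in control-MO, without overlap. Among the alpha genes the share of gabra6a was between 0.553% and 1.70% in wbp11-MO and between 11.6% and 14.4% in control-MO.

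The gamma subunits tie receptors to the synapse in mammals. The gamma gene gabrg1 had 3.99, 3.15 and 4.38 CPM in wbp11-MO, against 5.40, 5.97 and 4.45 CPM in control-MO. Its groups did not overlap, by a narrow margin, and it was not called, with a log2 fold change of -0.45 ± 0.23 (SE, with an adjusted p of 0.089 in edgeR).

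The delta subunit gene gabrd, whose product in mammals belongs to receptors outside the synapse, had 3.25, 2.18 and 3.00 CPM in wbp11-MO, against 16.0, 11.7 and 16.0 CPM in control-MO. The log2 fold change was -2.37 ± 0.20 (SE, with an adjusted p of 5.3e-12 in edgeR), and gabrz, annotated as a further subunit, was similar in size at -2.31 ± 0.32. By contrast the pi subunit gene gabrp had 17.4, 18.1 and 17.7 CPM in wbp11-MO, against 15.8, 18.4 and 17.7 CPM in control-MO. Its groups overlapped, with a log2 fold change of 0.04 ± 0.12 (SE, with an adjusted p of 0.80 in edgeR). Per length gabrp had the highest mean of the GABA-A genes in both groups, at 10.8 FPKM in wbp11-MO and 11.1 FPKM in control-MO. It was not the highest in each control-MO library.

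The subunits encoded by the gabrr genes form GABA receptors known best from bipolar cells of the retina, and 4 of the 5 genes were lower. In gabrr1 there were 2, 2 and 7 reads in wbp11-MO, against 71, 63 and 66 in control-MO, and in gabrr2a 2, 1 and 5 reads in wbp11-MO, against 52, 63 and 52 in control-MO. Few reads of either were left in wbp11-MO, with log2 fold changes of -4.11 ± 0.41 and -4.30 ± 0.46 (SE, with an adjusted p of 2.9e-10 and 1.5e-09 in edgeR). Without wbp11-MO replicate 3, the library with most of the remaining reads, they were -4.97 and -5.11. The gene gabrr3b fell by 2.33 and gabrr3a by 1.19 on the log2 scale, while gabrr2b had 1.30 ± 0.146 CPM in wbp11-MO and 1.77 ± 0.536 CPM in control-MO (SD, n = 3 each, edgeR adjusted p = 0.33). Inner retina markers, 9 of which were in the table, summed to between 522 and 553 CPM in wbp11-MO and between 727 and 791 CPM in control-MO, a log2 ratio of mean sums of -0.48 beside -2.20 for the gabrr genes. None of these markers was at 0, 7 were lower, 1 was higher and 1 was not called, beside 31.2% lower and 30.5% higher over all genes tested. The part of these markers in the gabrr result was not tested.

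Glycine receptors carry fast inhibition in the spinal cord and hindbrain. Of the 7 glycine receptor genes, 6 were lower in wbp11-MO and 1, glra4a, was higher, beside 31.2% and 30.5% of all genes tested. The most abundant by reads, glra1, encodes the alpha subunit of the adult synaptic receptor in mammals and had 32.4, 34.1 and 27.5 CPM in wbp11-MO, against 68.4, 71.3 and 66.0 CPM in control-MO. This was a log2 fold change of -1.13 ± 0.08 (SE, with an adjusted p of 1.2e-13 in edgeR). The genes glra2, glra3 and glra4b fell by 1.43, 1.56 and 1.84 on the log2 scale.

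The exception, glra4a (chromosome 14, 39002116 to 39074539), had 24.1, 26.2 and 27.0 CPM in wbp11-MO, against 19.6, 19.0 and 14.9 CPM in control-MO. Its groups did not overlap, and the log2 fold change was 0.53 ± 0.11 (SE, with an adjusted p of 1.4e-04 in edgeR). With the other alpha genes lower, glra4a came to 51.9%, 51.0% and 56.5% of the summed alpha FPKM in wbp11-MO, against 24.9%, 24.4% and 19.6% in control-MO. In control-MO glra1 held the largest share, between 29.4% and 31.0%.

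The beta subunit anchors the glycine receptor to the scaffold protein gephyrin beneath the synapse, and zebrafish has 2 genes for it. The major gene, glrbb, had 29.4, 28.3 and 22.6 CPM in wbp11-MO, against 57.3, 53.4 and 58.3 CPM in control-MO, a log2 fold change of -1.07 ± 0.09 (SE, with an adjusted p of 4.6e-12 in edgeR). The minor gene, glrba, had 14, 3 and 2 reads in wbp11-MO, against 95, 75 and 97 in control-MO. Its log2 fold change was -3.76 ± 0.37 (SE, with an adjusted p of 2.3e-10 in edgeR), and without wbp11-MO replicate 1 it was -5.01.

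**Figure D3:**
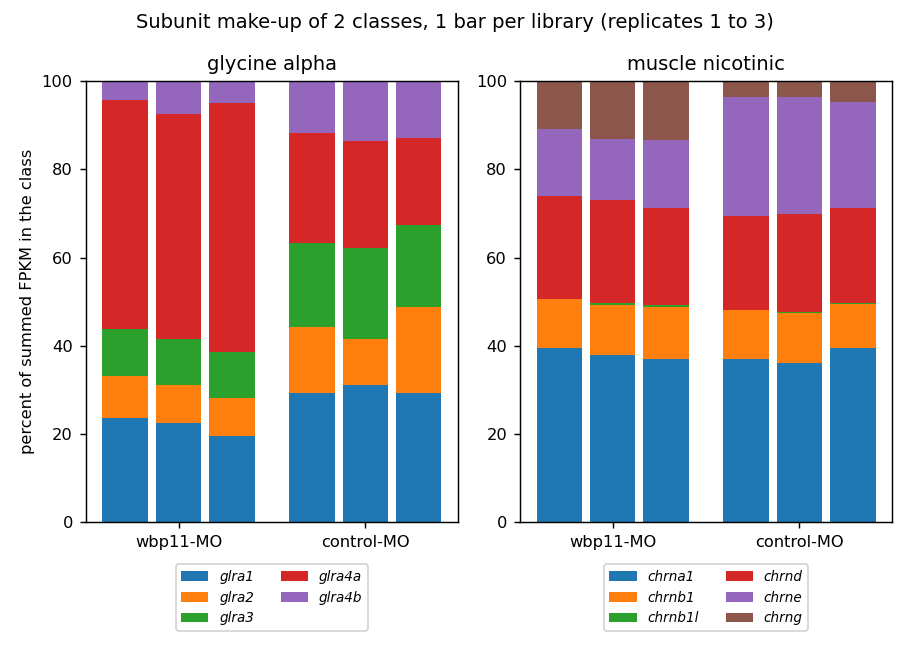
Percent of the summed FPKM of a class held by each of its genes (y axis, 0 to 100), with 1 stacked bar for each library, for glycine alpha and muscle nicotinic genes. The glra4a share lies between 51.0% and 56.5% in wbp11-MO and between 19.6% and 24.9% in control-MO, and the chrng share is larger in each wbp11-MO bar.

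Most neuronal nicotinic genes were lower in wbp11-MO. Of the 13 tested, 9 were lower, 1 was higher and 3 were not called, with a median log2 fold change of -0.97, and 5 of the 9 were at least 2-fold lower. Of all genes tested, 31.2% were lower, 14.3% at least 2-fold lower and 30.5% higher. Among the genes above 10 CPM in control-MO, the largest falls were those of chrna6 and chrnb3a, which in mammals encode partners in the receptors of dopamine neurons and of retinal ganglion cells. The chrna6 levels were 3.91, 3.31 and 3.57 CPM in wbp11-MO, against 15.0, 12.2 and 10.8 CPM in control-MO, a log2 fold change of -1.81 ± 0.19 (SE, with an adjusted p of 7.5e-10 in edgeR). For chrnb3a they were 5.02, 5.17 and 5.27 CPM in wbp11-MO, against 18.7, 18.2 and 19.2 CPM in control-MO, a log2 fold change of -1.86 ± 0.15 (SE, with an adjusted p of 1.6e-12 in edgeR). Neither gene's groups overlapped. The less abundant chrnb2a and chrnb3b had log2 fold changes of -2.54 ± 0.33 and -1.84 ± 0.41 (SE).

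The most abundant neuronal subunit gene by reads was chrnb2b, whose mammalian counterpart pairs with the alpha-4 subunit in the commonest receptor of the brain. It had 17.8, 17.1 and 14 CPM in wbp11-MO, against 34.5, 29.9 and 31.6 CPM in control-MO, a log2 fold change of -0.97 ± 0.11 (SE, with an adjusted p of 3.2e-09 in edgeR). The alpha-4 genes themselves were low in both groups. In chrna4b the level was 1.96 ± 0.128 CPM in wbp11-MO and 3.23 ± 0.338 CPM in control-MO (SD, n = 3 each). The gene chrna4a, which did not pass the filter, had 0 reads over the wbp11-MO libraries and 1, 8 and 3 in the control-MO libraries. With a floor of 3 reads over the wbp11-MO group its level was at least 3.91-fold lower, if the few control-MO reads are taken as exact. With no filter beyond 1 count its log2 fold change was -5.06 ± 1.83 (SE, with an adjusted p of 0.013 in edgeR).

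The neuronal gene that went the other way was chrna2a (chromosome 17, 6079881 to 6101820). It had 7.31, 5.81 and 6.65 CPM in wbp11-MO, against 5.03, 3.58 and 4.16 CPM in control-MO, a log2 fold change of 0.63 ± 0.21 (SE, with an adjusted p of 0.011 in edgeR). The call was lost without wbp11-MO replicate 1 (adjusted p = 0.059 in edgeR, range 0.0087 to 0.059 in the alternatives). Its values did not overlap between the groups, but the margin was narrow, 5.81 CPM in the lowest wbp11-MO library beside 5.03 CPM in the highest control-MO library.

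Not called were chrna5, chrna2b and chrnb4. The accessory subunit gene chrna5 was the highest neuronal alpha gene per length in both groups, holding 39.8% to 45.6% of the class in wbp11-MO and 32.0% to 41.2% in control-MO. In reads it stood at 8.98 ± 0.999 CPM in wbp11-MO and 10.4 ± 1.25 CPM in control-MO (SD, n = 3 each, edgeR adjusted p = 0.26). For chrna2b the values were 3.64 ± 0.865 CPM in wbp11-MO and 5.27 ± 0.41 CPM in control-MO (edgeR adjusted p = 0.052). It was called lower under 5 alternatives, 1 of them without wbp11-MO replicate 1 (adjusted p = 0.03 in edgeR, range 0.029 to 0.22 in the alternatives). The gene chrnb4, which in mammals serves autonomic ganglia together with chrna3, had 3.10 ± 0.611 CPM in wbp11-MO and 2.47 ± 0.271 CPM in control-MO (edgeR adjusted p = 0.33).

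Several falls in this family rested on few reads or on single libraries. The chrna3 call, at a log2 fold change of -0.74 ± 0.24 (SE, with an adjusted p of 0.009 in edgeR), was lost without control-MO replicate 1 (adjusted p = 0.08 in edgeR, range 0.0047 to 0.08 in the alternatives). That of chrna7, at -0.97 ± 0.38 (SE, with an adjusted p of 0.026 in edgeR), was lost when control-MO replicate 1 or either of wbp11-MO replicates 2 and 3 was left out (adjusted p = 0.21, 0.097 and 0.06 in edgeR, range 0.018 to 0.21 in the alternatives). For chrna4b, at -0.72 ± 0.29 (SE, with an adjusted p of 0.033 in edgeR), it was lost without control-MO replicate 1 or 3, without wbp11-MO replicate 1 or 3 (adjusted p = 0.11, 0.066, 0.077 and 0.062 in edgeR, range 0.02 to 0.11 in the alternatives) and with DESeq2 (adjusted p = 0.058). In chrnb2l there were 7, 7 and 14 reads in wbp11-MO, against 25, 9 and 28 in control-MO, and the groups overlapped. Its call, at -1.08 ± 0.47 (SE, with an adjusted p of 0.044 in edgeR), was lost without control-MO replicate 1 or 3, without wbp11-MO replicate 1 or 2 (adjusted p = 0.14, 0.20, 0.16 and 0.13 in edgeR, range 0.014 to 0.20 in the alternatives), with DESeq2 and with limma-voom (adjusted p = 0.09 and 0.064).

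The alpha-9 and alpha-10 subunits form the receptor through which efferent fibres act on hair cells. In chrna10a there were 4, 7 and 4 reads in wbp11-MO, against 36, 25 and 44 in control-MO, a log2 fold change of -2.73 ± 0.44 (SE, with an adjusted p of 3.1e-06 in edgeR). The chrna9 counts of 26, 34 and 25 in wbp11-MO overlapped those of 18, 19 and 32 in control-MO (edgeR adjusted p = 0.41). Genes listed as hair cell markers, 9 of which were in the table, summed to between 247 and 260 CPM in wbp11-MO and between 255 and 279 CPM in control-MO. None was at 0, 2 were higher, 4 were lower and 3 were not called, beside 30.5% higher and 31.2% lower over all genes tested. Most of the sum came from the 2 that were higher, pvalb9 and cldn7b. Their means were 108 and 94.1 CPM in wbp11-MO, against 84.5 and 74.9 CPM in control-MO. The 4 lower were otofa, otofb, myo6b and myo7aa, with log2 fold changes of -0.88 ± 0.11, -1.58 ± 0.11, -0.89 ± 0.14 and -1.17 ± 0.13 (SE). Whether each listed gene is particular to hair cells in whole embryos was not tested. The part of hair cells in the chrna10a result was not tested.

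The muscle-type genes form the contrast to the brain-type subunits. The genes for the alpha, beta and delta subunits, which are present in the receptor at every stage, were higher by similar factors in wbp11-MO. The chrna1 levels were 75.2, 73.6 and 74.3 CPM in wbp11-MO, against 58.6, 53.1 and 60.6 CPM in control-MO. For chrnb1 they were 45.9, 49.0 and 52.7 CPM in wbp11-MO, against 38.7, 36.3 and 34.0 CPM in control-MO. For chrnd they were 39.2, 40.4 and 39.2 CPM in wbp11-MO, against 29.8, 28.8 and 29.3 CPM in control-MO. No gene of the 3 overlapped between the groups, and the log2 fold changes were 0.37 ± 0.07, 0.44 ± 0.08 and 0.43 ± 0.08 (SE, with an adjusted p of 1.4e-05, 2.1e-05 and 3.9e-05 in edgeR).

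The genes for the subunits that replace each other in mammals went in opposite directions. The embryonic gamma subunit gene chrng (chromosome 2, 45081489 to 45097743) had 308, 349 and 362 reads in wbp11-MO, against 89, 70 and 110 in control-MO. The epsilon subunit gene chrne (chromosome 5, 38440099 to 38451082) had 438, 371 and 432 reads in wbp11-MO, against 658, 510 and 567 in control-MO. Gamma was thus higher and epsilon lower in each wbp11-MO library, with log2 fold changes of 1.96 ± 0.14 for chrng and -0.45 ± 0.09 for chrne (SE, with an adjusted p of 1.4e-13 and 3.6e-05 in edgeR). Both calls held under each of the 14 alternatives tried, with a range of 1.88 to 2.10 for chrng and of -0.52 to -0.39 for chrne.

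Within a library, the log2 ratio of chrng to chrne reads does not depend on library scaling. It was -0.51, -0.09 and -0.26 in wbp11-MO, against -2.89, -2.87 and -2.37 in control-MO, a mean difference of 2.42 (exact permutation test, two-sided p = 0.1, the smallest p that 3 against 3 libraries allow). Per length chrng made up 41.6%, 48.8% and 46.0% of the chrng and chrne sum in wbp11-MO, against 12.1%, 12.2% and 16.4% in control-MO. The sum of all muscle-type FPKM was divided otherwise much alike, chrna1 holding 36.9% to 39.5% in wbp11-MO and 36.2% to 39.4% in control-MO.

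The remaining muscle-type record, chrnb1l, lies next to chrnb1 on chromosome 7 with 5420 bases between them and did not pass the filter. It had 7, 15 and 14 reads in wbp11-MO, against 2, 3 and 9 in control-MO, and with no filter beyond 1 count its edgeR adjusted p was 0.072. When control-MO replicate 3 or wbp11-MO replicate 1 was left out it passed the filter and was called higher (edgeR adjusted p = 0.015 and 0.026), and without control-MO replicate 1 or 2 it was tested and not called (edgeR adjusted p = 0.19 and 0.12).

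**Figure D4:**
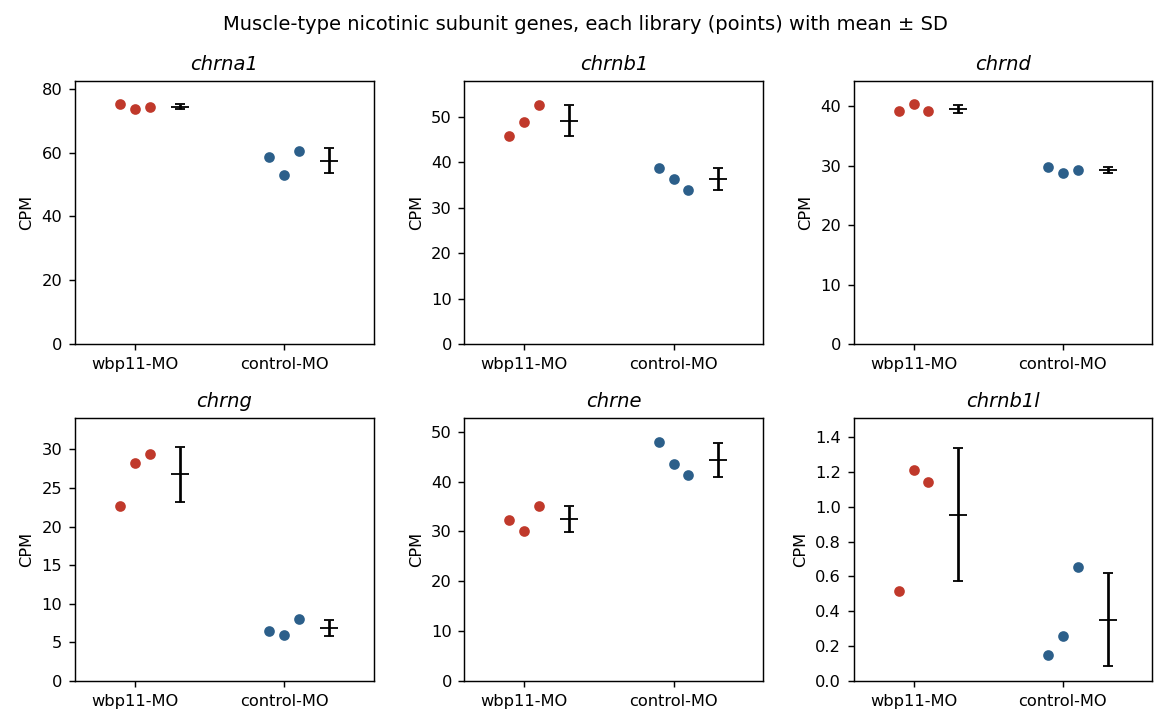
CPM (y axis, from 0) of the 6 muscle-type nicotinic genes in each library (points), with group mean and SD beside them. Mean chrng is 26.8 CPM in wbp11-MO and 6.83 CPM in control-MO, while chrne is the panel in which wbp11-MO lies below control-MO.

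Zebrafish keeps several of these genes as pairs of copies, and the log2 ratio between copies was compared between the groups. There were 9 pairs of members whose names differ only in a final a or b, and 8 of them had reads of both copies in each library. In 7 of the 8 the log2 ratio of the a copy to the b copy did not overlap between the groups (exact permutation test, two-sided p = 0.1 for each, or 0.11 after Benjamini-Hochberg adjustment over the 9 ratios tested, chrng to chrne included). No smaller p is possible with 3 libraries in each group, so no ratio could pass 0.05. Ratios of other gene pairs were not computed, and the groups did not overlap in 65.4% of all single genes tested.

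The widest gaps were in pairs with one copy nearly without reads in wbp11-MO. The gabrr2a to gabrr2b log2 ratio was -2.94 ± 1.33 in wbp11-MO and 1.32 ± 0.47 in control-MO, and that of gabra6a to gabra6b -1.16 ± 1.29 in wbp11-MO and 2.77 ± 0.88 in control-MO (SD, n = 3 each). In both pairs the copy with more reads in control-MO had fewer in most wbp11-MO libraries, the exception being wbp11-MO replicate 2 for gabra6a and gabra6b, with 5 and 4 reads. The ratio of glrba to glrbb was -6.27 ± 1.26 in wbp11-MO and -3.05 ± 0.01 in control-MO. For glra4a to glra4b it was 3.90 ± 0.45 in wbp11-MO and 1.47 ± 0.25 in control-MO, one copy being higher and its partner lower.

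In reads, the log2 ratio of chrna2a to chrna2b was 0.88 ± 0.38 in wbp11-MO and -0.32 ± 0.34 in control-MO (SD, n = 3 each). Per length chrna2a was the higher copy in both groups, at 2.71 FPKM beside 0.95 FPKM for chrna2b in wbp11-MO and at 1.84 FPKM beside 1.45 FPKM in control-MO. The read ratio of gabrr3a to gabrr3b was 0.35 ± 0.29 in wbp11-MO and -0.84 ± 0.56 in control-MO. Per length gabrr3a was the higher copy in wbp11-MO, at 0.869 FPKM beside 0.684 FPKM, and gabrr3b in control-MO, where gabrr3a had 2.08 FPKM beside 3.64 FPKM for gabrr3b. The chrnb2a to chrnb2b ratio was -4.36 ± 0.84 in wbp11-MO and -2.71 ± 0.22 in control-MO; newer gene tables list the chrnb2a record under another symbol, so it may not be a true copy of chrnb2b. The chrnb3a to chrnb3b ratio overlapped between the groups, at 2.99 ± 0.29 in wbp11-MO and 3.01 ± 0.40 in control-MO. Reads shared by similar copies could have been dropped or split in counting, so the share of each copy is uncertain.

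**Figure D5:**
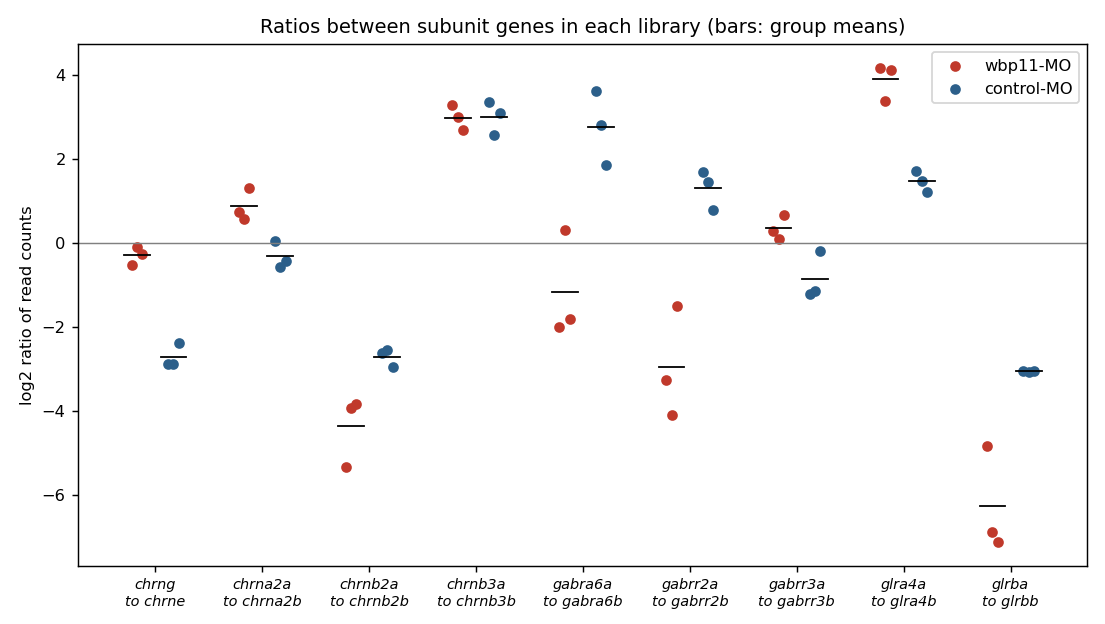
Log2 ratio of read counts between 2 subunit genes (y axis) in each library (points, with group means as bars), for chrng to chrne and 8 pairs of copies. The groups overlap only for chrnb3a to chrnb3b, and the largest distance is that of gabrr2a to gabrr2b.

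Receptor genes also sit side by side in the genome, and 21 of the 50 members lie within 200000 bases of another member, in 9 clusters. Neighbours did not always move by the same amount. On chromosome 20, gabrr1 and gabrr2b are 7127 bases apart on the same strand, with log2 fold changes of -4.11 ± 0.41 and -0.43 ± 0.38 (SE). On chromosome 14, gabra6a and gabrb2 are 3260 bases apart with -5.40 ± 0.33 and -2.30 ± 0.16. On chromosome 13, gabra2a fell by 2.07 while its neighbours gabrg1 and gabrb1 stood at -0.45 and -0.57. On chromosome 18, chrnb4 and chrna3 are 2586 bases apart, with 0.33 ± 0.29 for chrnb4, which was not called, and -0.74 ± 0.24 for chrna3 (SE).

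Some other clusters were more even. The 3 nicotinic genes chrnb3a, chrna6 and chrnb2a on chromosome 1 (22388799 to 22594338) had log2 fold changes of -1.86, -1.81 and -2.54. The nicotinic genes chrnb2l and chrnb3b, 3068 bases apart on chromosome 14, had -1.08 ± 0.47 and -1.84 ± 0.41 (SE). The strand setting of the counting is not given in the sources used here, so reads of overlapping genes cannot be told apart; 8 members overlap a record on the opposite strand, among them chrna3, chrnb3b, chrnb4, chrne, gabra5, gabra6a and glrbb. The record opposite chrne had at most 12 reads in any library. Opposite the whole of chrna3 and chrnb4 lies ube2q1, with 332 to 414 reads per library. The whole of glrbb lies opposite pdgfc, with 214 to 321 reads per library.

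Genes that make, move and anchor the same transmitters were compared from lists, whose counts stand beside 31.2% lower and 30.5% higher over all genes tested; differences between lists were not tested. Of 17 genes of GABA and glycine synthesis and transport, 13 were lower, 1 was higher and 3 were not called, with a median log2 fold change of -0.96. The GABA-synthesizing enzyme gene gad1b had 43.5 ± 2.00 CPM in wbp11-MO and 152 ± 0.446 CPM in control-MO, and the GABA uptake gene slc6a1b 82.0 ± 4.05 CPM in wbp11-MO and 263 ± 8.77 CPM in control-MO (SD, n = 3 each). The uptake gene slc6a11a was higher, by a log2 fold change of 0.66 ± 0.15 (SE, with an adjusted p of 3.8e-04 in edgeR). Of 15 genes of the inhibitory postsynapse and chloride balance, 13 were lower and 2 not called, with a median of -1.01. Largest in significance were nlgn2a, an adhesion protein of inhibitory synapses, at -1.77 ± 0.10, and slc12a5b, the chloride exporter that makes GABA inhibitory in mature neurons, at -2.09 ± 0.13 (SE, with an adjusted p of 1.6e-15 and 3.0e-15 in edgeR). Of the 3 GABA-B receptor genes, which encode the G-protein-coupled GABA receptor, gabbr1b and gabbr2 fell by 1.06 and 1.14 and gabbr1a was not called.

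Of 6 genes of acetylcholine synthesis, transport and breakdown, 5 were lower and 1, chata, was not called, with a median log2 fold change of -0.78. The esterase gene ache had 75.5 ± 4.53 CPM in wbp11-MO and 126 ± 7.78 CPM in control-MO, and the vesicular transporter gene slc18a3a 27.1 ± 1.05 CPM in wbp11-MO and 48.1 ± 2.43 CPM in control-MO (SD, n = 3 each). Of 10 genes of neuromuscular junction assembly, 5 were higher, 3 lower and 2 not called, with a median of 0.20, so the list went both ways. Those with the smallest adjusted p were lamb2 and crk, higher by 0.57 and 0.50, and erbb3b and erbb3a, which fell by 0.57 and 0.31. The receptor-clustering gene rapsn and the kinase gene musk, chosen after their values were seen, had log2 fold changes of 0.68 ± 0.09 and 0.76 ± 0.14 (SE, with an adjusted p of 5.5e-08 and 2.4e-05 in edgeR). Of the 2 listed modulators of nicotinic receptors in the table, lypd6b was higher by 0.60 and lypd6 fell by 0.45.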

How the data were processed

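Per the labels, each library was made from the oligo(dT)-selected RNA of 50 pooled embryos. Tools named in the submitters' processing notes are FastQC 0.12.1 and HTSeq 2.0.5, with GRCz11 as build; no source used here gives the aligner, annotation release or strand setting. The deposited read counts are raw whole numbers per gene. The authors' FPKM could be recomputed from these counts, gene length and column total, to a largest relative difference of 1.72e-14, and served only to compare levels between genes. Whether the pools came from separate crosses is not stated, so p-values measure the spread between pools.

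The counts were fitted with edgeR 4.0.16 (R 4.3.3): filterByExpr, TMM factors and the quasi-likelihood F-test, wbp11-MO over control-MO, on the whole table without a replicate block. Benjamini-Hochberg adjustment covered all genes tested, and called means an adjusted p under 0.05. CPM are counts over TMM-scaled library sizes, and each SE was derived from the log2 fold change and the F value. Floors cover counting error only, because the counts do not set PCR copies apart, and only in the group without reads. Replicate libraries differed beyond sampling noise (chi-square over its degrees of freedom, 2.63 to 4.03). Members and lists were chosen with earlier results of these data known. The genes named are the muscle-type members, the 3 most abundant and the most significant of each other class, members that were higher, pairs of copies and, per list, up to 2 called genes in each direction; other members are named to account for all. Alternatives were RLE and upper-quartile factors, library totals, 2 other filters, a replicate block, each library left out in turn, DESeq2 1.42.0 and limma-voom 3.58.1. The fits were also run on simulated counts in which few genes changed, in random directions. Far more genes were called here, so that run does not check the fits on such data. Results of some members are not reported here, although they enter the counts, sums and medians.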

Additional observations from a re-analysis of the deposited data

How the results depend on the processing

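Over 14 alternatives, 671 log2 fold changes of members were recomputed; 638 kept direction and side of the threshold, 26 lost a call and 5 gained one, and the report names the genes concerned. For gabrp, not called, the sign turned with library totals without factors (-0.04) and without control-MO replicate 1 (-0.03, in a range of -0.03 to 0.08 with 1 library left out). Members called lower ran from 30 to 34, and called higher from 6 to 7, when 1 library was left out, and muscle-type genes called higher from 4 to 5. Brain-type genes called higher ran from 1 to 2, the 1 being without wbp11-MO replicate 1, when chrna2a lost its call. Adding 4 records that the table describes as GABA-A subunits under other names, an alternative chosen after seeing the data, gave 39 lower and 6 higher.

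Medians moved by more than the spread between libraries in some settings, and no median of a family reversed. The GABA-A median was -1.81 with library totals, -1.89 with the strict filter, -1.66 with a replicate block, -1.61 by limma-voom and between -2.06 and -1.65 with 1 library left out. The glycine median was -1.50 with library totals and -1.51 to -1.21 with 1 library left out. The muscle-type median was 0.40 with upper-quartile factors, 0.36 with library totals and 0.38 to 0.44 with 1 library left out. With 1 library left out the medians were -1.40 to -1.14 for all members, -1.52 to -1.21 for brain-type genes and -1.02 to -0.65 for neuronal nicotinic genes. The median of all genes was -0.03 with upper-quartile factors, -0.07 with library totals and -0.01 to -0.00 with 1 library left out. The cause was not tested.

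Replicate numbers did not pair the libraries: deviations of same-numbered libraries from their group means correlated at -0.0231, -0.0513 and 0.0169. With the replicate block 33 members were lower and 6 higher, chrna4b and chrnb2l no longer being called (adjusted p = 0.051 and 0.06 in edgeR). Depth limits the genes with under 10 reads in a group, whose fold changes depend on single reads.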

Other observations

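The table holds 4 further records described as GABA-A receptor subunits but named otherwise, and all 4 were lower in wbp11-MO. The record GABRA2 (chromosome 14, 4478416 to 4556911) had 3.03, 2.58 and 2.84 CPM in wbp11-MO, against 10.2, 7.76 and 8.31 CPM in control-MO, a log2 fold change of -1.63 ± 0.21 (SE, with an adjusted p of 7.3e-08 in edgeR). The record GABRB2 (1 of many) had 2, 3 and 4 reads in wbp11-MO, against 33, 43 and 23 in control-MO. The record GABRR1 (1 of many) had 2.77 ± 0.234 CPM in wbp11-MO and 6.11 ± 0.242 CPM in control-MO (SD, n = 3 each), a smaller difference than that of gabrr1. The record AL929217.1, described as pi-like, had a log2 fold change of -1.66 ± 0.36 (SE, with an adjusted p of 2.1e-04 in edgeR), whereas gabrp itself was not called.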
